A study of Mus musculus with 18 samples.

Results

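Chemokines are small secreted proteins that guide leukocytes along a gradient by binding G protein-coupled receptors on the cell surface. Monocytes are both targets and sources of them: Ccr2 and Cx3cr1 steer monocytes between marrow, blood and spleen, while the monocytes themselves can release ligands for neutrophils, lymphocytes and other monocytes. The 10 chemokine genes described here, Ccl2, Ccl3, Ccl4, Ccl5, Ccl6, Ccl9, Cxcl2, Cxcl10, Cxcl16 and Pf4, were chosen by gene symbol as ligands that monocytes are known to make, and all 10 were found among the 55416 genes of the count table.

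RNA was sequenced from monocytes sorted out of mouse spleens at day 3, in 18 libraries of 6 groups with 3 mice each. The mice were C57BL/6 wild type (WT), Dectin-1 -/- and FcgRIIb -/-, and each genotype received either phosphate-buffered saline (PBS) or intravenous immunoglobulin (IVIg, pooled immunoglobulin G). Clec7a encodes Dectin-1, a receptor for fungal beta-glucan, and Fcgr2b encodes FcgRIIb, the Fc gamma receptor that inhibits the cell carrying it. The question of the study is whether these receptors shape what IVIg does to monocytes. The labels give neither dose nor route of IVIg, neither the age nor the strain background of the knockout mice, and nothing that limits a knockout to monocytes.

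Depth was 16996494 to 48958909 counts in 17 libraries. The second FcgRIIb knockout PBS library was shallow, with 719494 counts. Levels are given as CPM (counts scaled to a common library size). By raw library totals, 3 counts are worth 4.17 CPM in the shallow library and 0.0613 to 0.177 elsewhere. With the scaled library sizes used for all other CPM, 3 counts are worth 4.24 in the shallow library. Means are therefore over the 17 deep libraries, and the shallow value is printed beside them. Clec7a lay at 0.247 to 4.05 CPM in the Dectin-1 knockout libraries and at 360 to 956 CPM in the others. Fcgr2b lay at 130 to 250 CPM in the FcgRIIb knockout libraries and at 208 to 318 CPM in the others, so this gene count does not separate the genotypes, and no label says whether the counted exons include the deleted part. Monocyte markers dominated: 11 of 11 were tested, and their sum was at least 21610 CPM in each library, while the T cell, NK cell and B cell markers summed to at most 69.6, 63.9 and 460 CPM. Red pulp macrophage markers summed to at most 272 CPM and dendritic cell markers to at most 590 CPM. Neutrophil markers reached 1525 CPM, in Dectin-1 knockout IVIg replicate 2. The most alike of 153 pairs of libraries were WT PBS replicate 3 and WT IVIg replicate 1 (Spearman 0.988), which differ in treatment, and results were also computed without that pair.

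Promoter windows are shown for 4 members, to set the abundant ones beside one that was not detected. They are the 250 bases before the RefSeq transcription start (GRCm38.p6, a different build from the GRCm39 of the counts), printed for the 2 abundant neighbours Ccl6 and Ccl9, for Cxcl10, and for Cxcl2, which gave no counts. Capitals mark letters matching a motif, positions count back from the start, and a match is a description of the letters only.

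Ccl6 (chr11:83593088-83593337, minus strand): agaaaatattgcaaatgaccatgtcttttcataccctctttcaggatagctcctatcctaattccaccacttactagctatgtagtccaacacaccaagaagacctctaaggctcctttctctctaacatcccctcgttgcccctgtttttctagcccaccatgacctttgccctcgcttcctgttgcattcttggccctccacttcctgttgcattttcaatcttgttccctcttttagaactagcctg
Ccl9 (chr11:83578637-83578886, minus strand): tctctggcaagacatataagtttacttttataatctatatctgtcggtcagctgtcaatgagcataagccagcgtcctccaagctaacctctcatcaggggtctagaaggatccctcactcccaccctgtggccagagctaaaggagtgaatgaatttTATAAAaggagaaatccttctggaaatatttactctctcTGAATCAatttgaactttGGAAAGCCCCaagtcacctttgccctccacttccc
Cxcl10 (chr5:92348890-92349139, minus strand): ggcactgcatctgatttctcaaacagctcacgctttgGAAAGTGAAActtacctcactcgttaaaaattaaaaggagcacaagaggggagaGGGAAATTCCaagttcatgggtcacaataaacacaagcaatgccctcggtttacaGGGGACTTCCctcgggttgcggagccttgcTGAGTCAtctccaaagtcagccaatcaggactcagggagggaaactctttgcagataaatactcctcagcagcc
Cxcl2 (chr5:90903649-90903898, plus strand): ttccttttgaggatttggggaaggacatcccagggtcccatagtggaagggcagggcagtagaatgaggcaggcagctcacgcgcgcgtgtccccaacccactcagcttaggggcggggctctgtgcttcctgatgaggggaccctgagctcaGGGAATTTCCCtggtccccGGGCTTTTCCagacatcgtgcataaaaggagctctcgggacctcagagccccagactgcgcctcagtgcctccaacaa

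The Ccl9 window holds TATAAA from -92 to -87, a match to TGANTCA (AP-1) from -53 to -47 and one to the NF-kB motif, GGG and TTCC with 3 bases of any kind between them, on the opposite strand from -35 to -26. Cxcl10 has NF-kB matches from -159 to -150 and from -104 to -95, an AP-1 match from -74 to -68, and the interferon response motif, GAAA repeated after 2 bases of any kind, from -213 to -204. Cxcl2 has 3 NF-kB matches, of which the pair from -97 to -88 and from -96 to -87 is one site read on both strands, and a further one from -78 to -69. The Ccl6 window held no match to these motifs or to GAGGAAG (PU.1) and TTGCNNAA (C/EBP). Among 32851 mouse promoters of the same length, TATAAA on the forward strand was found in 7.59%, and on either strand TGANTCA in 6.75%, the NF-kB motif in 4.65%, the interferon response motif in 2.98%, GAGGAAG in 10.6% and TTGCNNAA in 9.56%. RefSeq promoters matched 6 of the 10 members.

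Ccl6 and Ccl9, rodent CC chemokines that signal through Ccr1, supplied nearly all chemokine transcript in these cells. Together they made up 95.5% to 98.4% of the counts of the 10 members in a library, with a median of 97.1%, and 0.0976% to 0.250% of all counts. Ccl6 (ENSMUSG00000018927, chromosome 11, 83478708 to 83483913, GRCm39) averaged 976 ± 275 CPM (SD, n = 17) and ranked 97th of all genes per kilobase of exon. Ccl9 (ENSMUSG00000019122, chromosome 11, 83463745 to 83469462) averaged 620 ± 178 CPM and ranked 300th. Per kilobase of exon, Ccl6 stood at 544 RPKM and Ccl9 at 203 RPKM, and Ccl6 was the higher of the pair in each of the 18 libraries, by 1.63 to 3.73 times. The lowest of these ratios belonged to the shallow library.

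**Figure D1:**
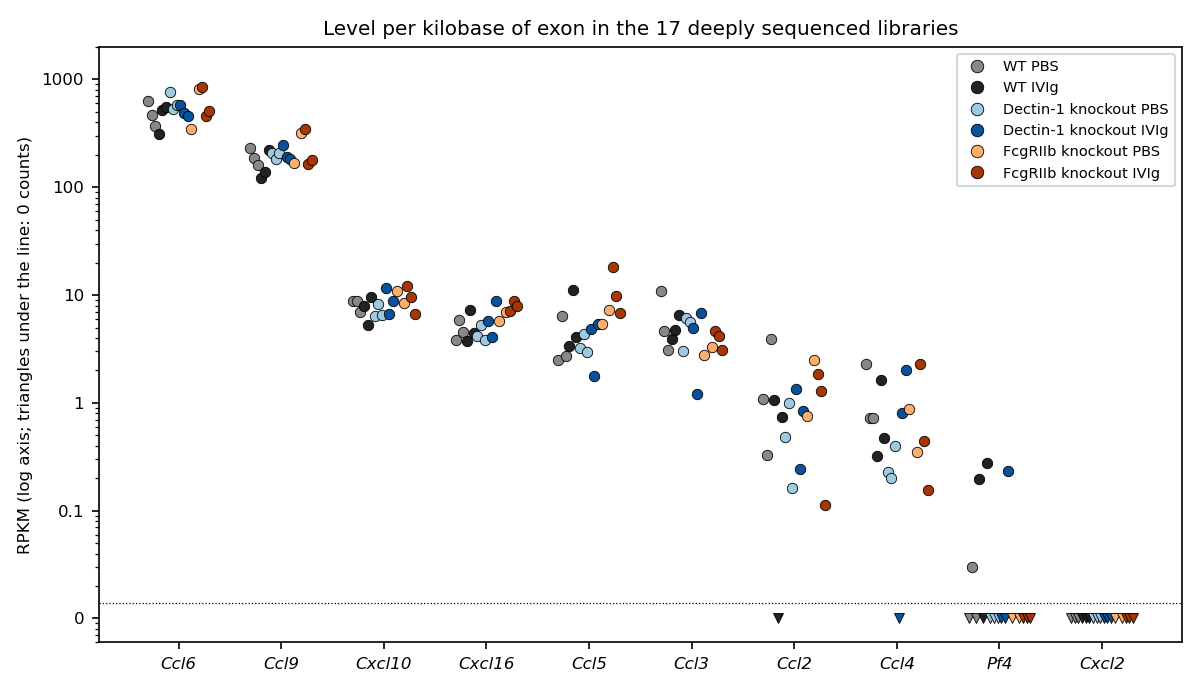
Level of each of the 10 chemokines per kilobase of exon (RPKM, log axis) in the 17 deeply sequenced libraries, 1 point per library coloured by group, with libraries at 0 counts drawn as triangles under the dotted line. Ccl6 and Ccl9 lie above 100 RPKM in each library, Cxcl10, Cxcl16, Ccl5 and Ccl3 lie mostly between 1 and 20, Ccl2 and Ccl4 lie mostly under 3, Pf4 shows 4 points above 0 and Cxcl2 none.

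In WT mice Ccl6 stood at 1126, 849 and 669 CPM with PBS and at 557, 928 and 992 CPM with IVIg. Its values were 1370, 965 and 1030 CPM in Dectin-1 knockouts with PBS and 1042, 877 and 818 CPM in those with IVIg. In FcgRIIb knockouts they were 620, 1242 (the shallow library) and 1452 CPM with PBS and 1542, 830 and 925 CPM with IVIg. The groups overlap throughout, and mice of one group differed as widely as mice of different groups. Ccl9 followed the same ups and downs: 704, 567 and 490 CPM in WT PBS, 371, 422 and 681 in WT IVIg, and 627, 557 and 637 in Dectin-1 knockout PBS. The remaining Ccl9 values were 758, 579 and 553 CPM in Dectin-1 knockout IVIg, 511, 1295 (shallow) and 974 in FcgRIIb knockout PBS, and 1055, 497 and 550 in FcgRIIb knockout IVIg.

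Over the 17 deep libraries the log2 CPM of Ccl6 and Ccl9 went together with Pearson r = 0.85 and Spearman rho = 0.86, with r = 0.73 without the 2 libraries farthest from the median of Ccl6, and with r = 0.89 among deviations from the group means. These r values, like those below, describe libraries that share a sort and a scaling and were picked from many pairs, so no p is attached. Most like Ccl6 was Sdcbp (syntenin, an adaptor of membrane trafficking; r = 0.95), and most like Ccl9 was Gm45717 (r = 0.94), a gene model. Ccl9 went up with the summed monocyte markers (r = 0.90) and down with the 10 non-classical monocyte markers (r = -0.68). Ccl6 did so less closely (r = 0.74 and -0.50). Without the 2 farthest libraries these were 0.79 and -0.50 for Ccl9 and 0.54 and -0.43 for Ccl6. Among deviations from the group means they were 0.95 and -0.66 for Ccl9 and 0.82 and -0.65 for Ccl6. With the 10 classical monocyte markers r was 0.58 for Ccl9 and 0.42 for Ccl6 (rho = 0.72 and 0.63). With the sum of the NF-kB and inflammatory genes described below, r was -0.61 for Ccl9 and -0.74 for Ccl6. The non-classical sum, which includes Cx3cr1 and Nr4a1, lay at 5002 to 6676 CPM in WT PBS, 7353 to 8861 in WT IVIg, 6147 to 7479 in Dectin-1 knockout PBS, 5522 to 7635 in Dectin-1 knockout IVIg and 5522 to 6359 in FcgRIIb knockout IVIg. In FcgRIIb knockout PBS it was 6034, 3426 (shallow) and 4447 CPM. With IVIg 10 of 10 of these markers had estimates above 0 in WT (median 0.64 on the log2 scale), 3 of 10 in Dectin-1 knockouts (median -0.18) and 9 of 10 in FcgRIIb knockouts (median 0.45), and 0 were called in any of the 3. In bulk RNA a shift in the mix of cells and a change in RNA per cell cannot be told apart.

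**Figure D2:**
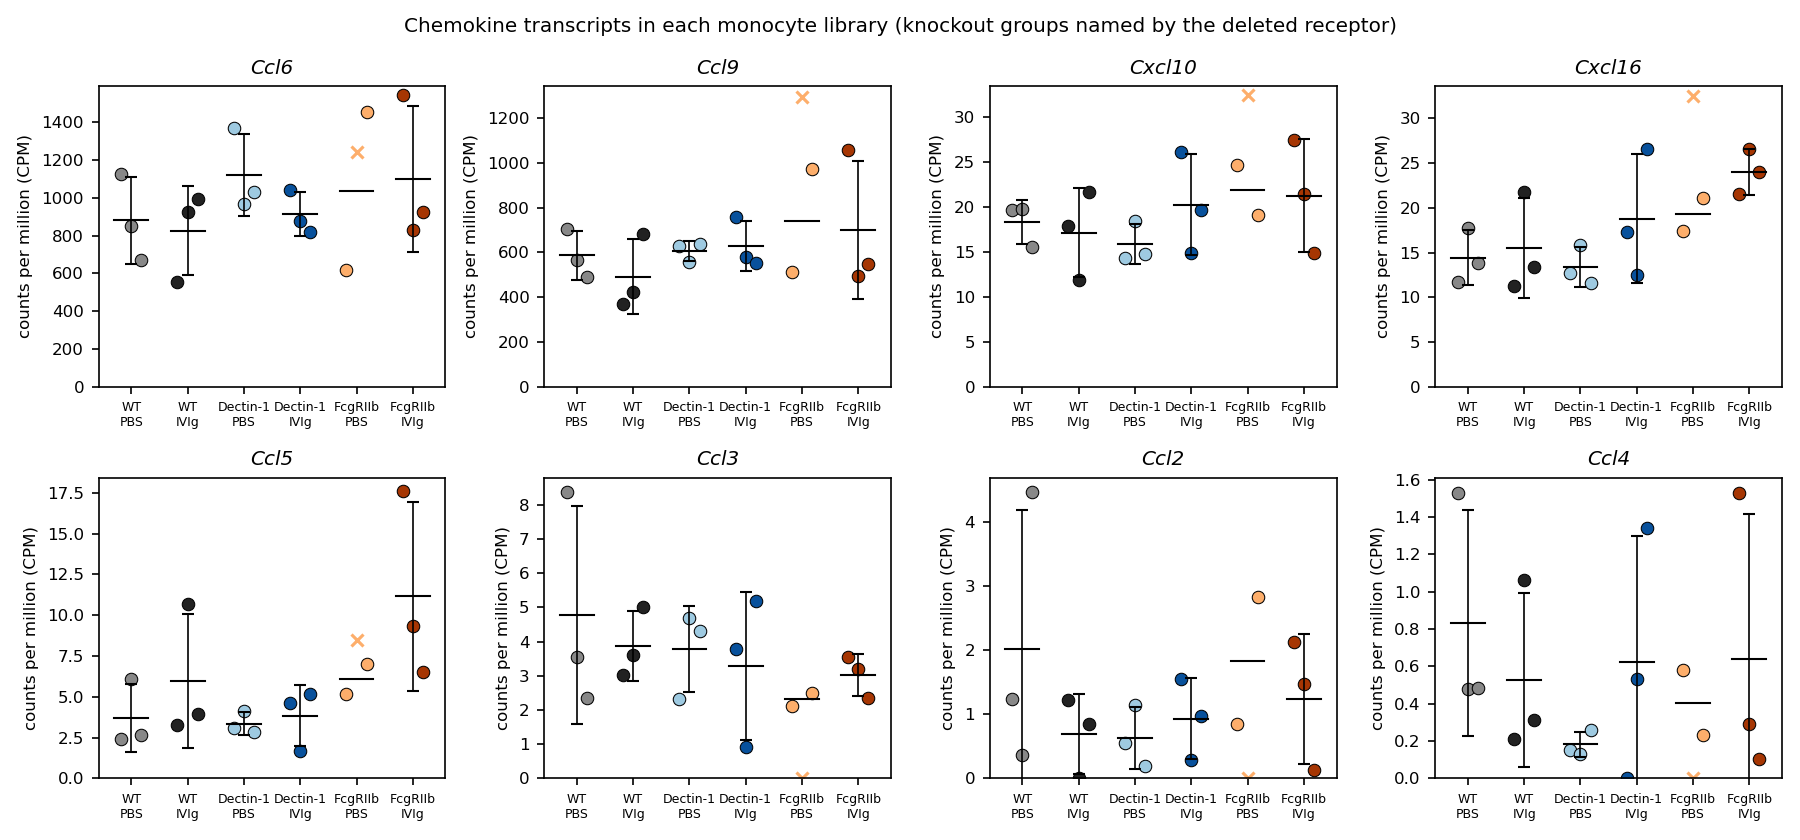
CPM of the 8 chemokines that could be tested, 1 point per mouse in each of the 6 groups (crosses: the shallow library), with horizontal bars at the mean and whiskers of 1 SD where 3 deep libraries exist, cut at 0. PBS and IVIg groups of a genotype overlap, as do knockout and WT groups under the same treatment, for each chemokine except Ccl4. For Ccl4 the 3 Dectin-1 knockout PBS mice lie under the 3 WT PBS mice. Some other pairs lie apart, such as Cxcl16 in FcgRIIb knockout IVIg (21.5 to 26.6 CPM) and WT PBS (11.7 to 17.8 CPM), which differ in genotype and treatment. Such pairs were picked from the values, and the share of all genes that lie apart in them was not computed. Cxcl16 and Ccl5 reach their highest group means in FcgRIIb knockout IVIg.

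Cxcl10 and Cxcl16 formed a middle tier. Cxcl10 (ENSMUSG00000034855, chromosome 5, 92494497 to 92496748), the interferon-inducible ligand of Cxcr3 on T and NK cells, averaged 19.0 ± 4.38 CPM (8.42 RPKM) and was the steadiest member, with a coefficient of variation of 23.1%. It was counted at 19.6, 19.8 and 15.5 CPM in WT PBS, 17.9, 11.9 and 21.7 in WT IVIg, 14.4, 18.5 and 14.8 in Dectin-1 knockout PBS and 26.2, 14.9 and 19.7 in Dectin-1 knockout IVIg. FcgRIIb knockouts gave 24.7, 32.5 (shallow, from 23 counts) and 19.1 CPM with PBS and 27.5, 21.4 and 14.9 with IVIg. Groups overlapped between PBS and IVIg in each genotype and between each knockout and WT under the same treatment. The Dectin-1 knockout PBS mice (up to 18.5) lay just under the FcgRIIb knockout PBS mice (from 19.1). That pair of groups was picked after the values were seen, and the share of all genes that do not overlap in it was not computed. The gene most similar to Cxcl10 was Gpr183 (r = 0.79), the oxysterol receptor that positions immune cells in the spleen. Cxcl10 shares 133 exon bases with the antisense gene Art3, which held 1911 counts in all against 11270 for Cxcl10.

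Cxcl16 (ENSMUSG00000018920, chromosome 11, 70344809 to 70350810) encodes a membrane-bound ligand of Cxcr6 that is shed by Adam10. It averaged 17.5 ± 5.26 CPM (5.78 RPKM). WT mice had 11.7, 17.8 and 13.8 CPM with PBS and 11.3, 21.8 and 13.4 with IVIg, and Dectin-1 knockouts 12.7, 15.8 and 11.6 with PBS and 17.3, 12.4 and 26.6 with IVIg. FcgRIIb knockouts had 17.5, 32.5 (shallow, from 23 counts) and 21.1 CPM with PBS and 21.5, 26.6 and 24.0 with IVIg. The FcgRIIb knockout IVIg mice therefore sat at the upper end, with 1 WT IVIg mouse (21.8) and 1 Dectin-1 knockout IVIg mouse (26.6) among them. Cxcl16 and the antisense gene Zmynd15 share 552 exon bases, and the counting used no strand option, so reads in the shared bases count for both. Zmynd15 was the gene most like Cxcl16 (r = 0.92, rho = 0.93), and it held 4331 counts against 10725. Part of the level given for Cxcl16 may therefore belong to Zmynd15, and the 2 were not separated.

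Ccl5, Ccl3 and Ccl4 are inflammatory CC chemokines that attract monocytes and T cells, and all were low. Ccl5 (ENSMUSG00000035042, chromosome 11, 83416604 to 83421344) averaged 5.66 ± 3.94 CPM (5.90 RPKM) and ranged from 1.70 to 17.6 CPM. Its values were 2.40, 6.08 and 2.63 CPM in WT PBS, 3.26, 10.7 and 3.95 in WT IVIg, 3.09, 4.14 and 2.83 in Dectin-1 knockout PBS and 4.64, 1.70 and 5.18 in Dectin-1 knockout IVIg. In FcgRIIb knockouts it stood at 5.18, 8.47 (shallow, from 6 counts) and 6.99 CPM with PBS and at 17.6, 9.35 and 6.51 with IVIg. All FcgRIIb knockout mice lay above the median of the 17 libraries (4.64 CPM). So did 1 WT mouse in each treatment (6.08 and 10.7) and a Dectin-1 knockout IVIg mouse (5.18).

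Ccl5 ran in parallel with an antigen presentation gene. Its closest gene was H2-Eb1, an MHC class II chain (r = 0.91, rho = 0.92, and r = 0.88 among deviations from the group means). H2-Eb1 stood at 918 to 1570 CPM in WT PBS, 945 to 3007 in WT IVIg, 987 to 1368 in Dectin-1 knockout PBS, 1024 to 1590 in Dectin-1 knockout IVIg, 1426 to 1885 in FcgRIIb knockout PBS and 1570 to 2397 in FcgRIIb knockout IVIg. Cxcl16 followed H2-Eb1 too (r = 0.83) and Ccl5 itself (r = 0.80).

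T and NK cells also make Ccl5, and their markers were present at low level. The 10 NK cell markers summed to 23.6 to 26.5 CPM in WT PBS, 22.2 to 47.5 in WT IVIg, 8.78 to 16.9 in Dectin-1 knockout PBS, 15.6 to 16.8 in Dectin-1 knockout IVIg and 38.7 to 63.9 in FcgRIIb knockout IVIg, and none was at 0 in all libraries. In FcgRIIb knockout PBS the 2 deep libraries gave 32.5 and 35.1 CPM, above each WT PBS mouse, and the shallow one 5.65, from 4 counts of Klrk1. The 11 T cell markers summed to 25.5 to 39.7, 16.0 to 55.2, 11 to 22.3, 22.0 to 29.4 and 40.9 to 69.6 CPM in the same order, again with none at 0 throughout, and to 36.5, 45.2 (shallow) and 33.6 CPM in FcgRIIb knockout PBS. Ccl5 went with both sums (r = 0.77 for NK and 0.70 for T cells). Most of the NK sum was Klrk1 and the largest share of the T cell sum was Cd4, and without these genes r was 0.64 and 0.57 over all libraries and 0.34 and 0.17 among deviations from the group means. Without Klrk1, the NK sum was 9.14 to 11.9 CPM in the 2 deep FcgRIIb knockout PBS libraries and 11.8 to 28.9 in FcgRIIb knockout IVIg, against 4.26 to 7.89 in WT, 1.90 to 9.42 in Dectin-1 knockout PBS and 5.07 to 10.9 in Dectin-1 knockout IVIg. Klrk1 itself was called lower in Dectin-1 knockouts than in WT, at -1.84 on the log2 scale with IVIg (edgeR adjusted p = 0.0435) and at -1.55 averaged over treatments (edgeR adjusted p = 0.00347). Klrk1 is a killer lectin-like receptor gene beside Clec7a, the gene deleted in these mice. An effect of that locus and a difference in NK cells cannot be told apart for Klrk1. Without Klrk1 the NK sums of Dectin-1 knockouts overlapped those of WT. Dendritic cells carry MHC class II as well, and Ccl5 went with the sum of the 8 dendritic cell markers (r = 0.68, and 0.72 among deviations from the group means). That sum lay at 372 to 455 CPM in WT PBS, 346 to 590 in WT IVIg, 319 to 428 in Dectin-1 knockout PBS, 386 to 460 in Dectin-1 knockout IVIg, 496 (shallow) to 562 in FcgRIIb knockout PBS and 425 to 521 in FcgRIIb knockout IVIg. The part of such cells in the Ccl5 level was not tested.

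**Figure D3:**
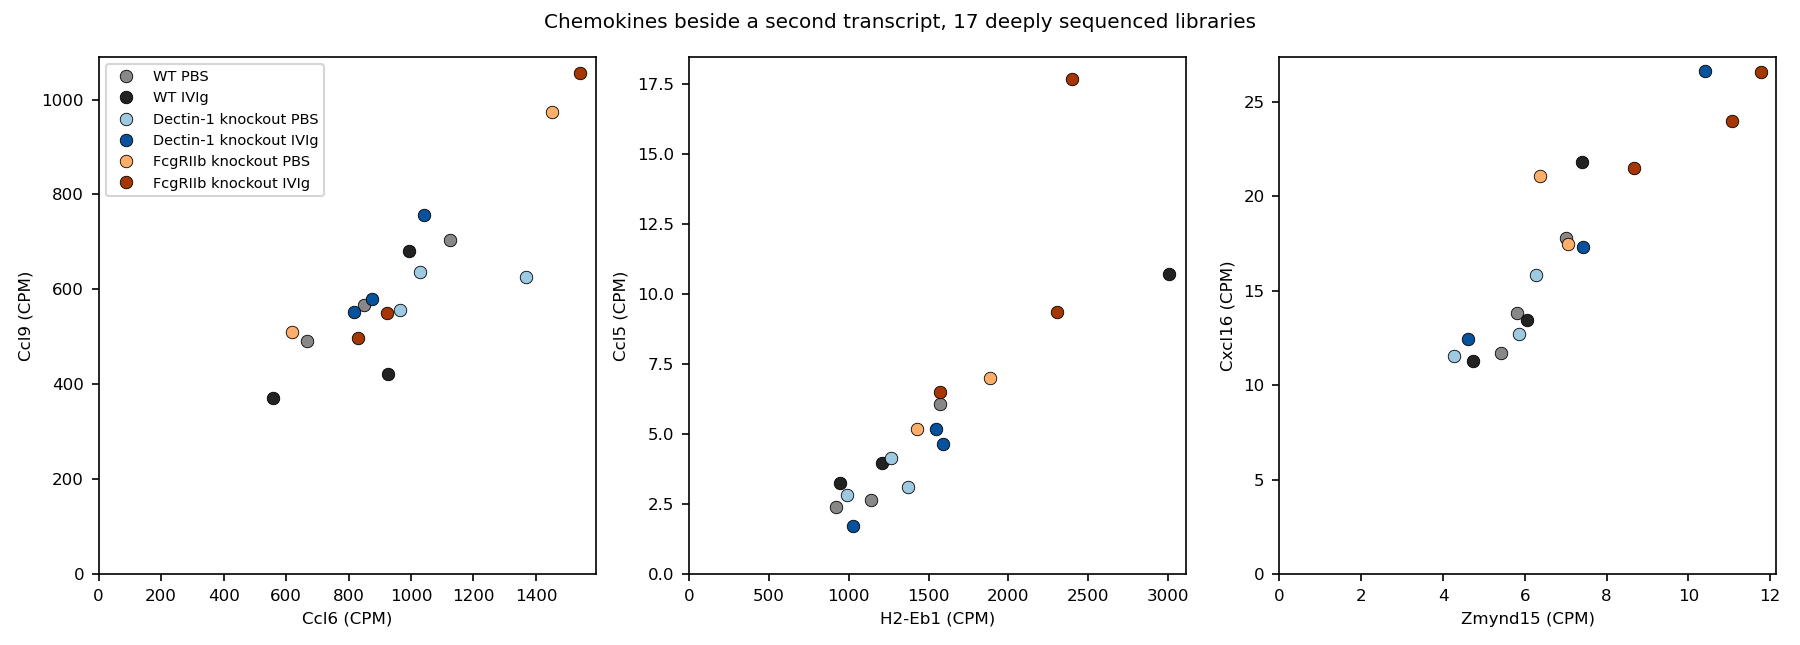
CPM in the 17 deeply sequenced libraries, 1 point per library coloured by group: Ccl9 against Ccl6, Ccl5 against H2-Eb1, and Cxcl16 against Zmynd15, whose exons overlap. Points rise from lower left to upper right in each panel, and the highest Ccl5 value (17.6 CPM) is a FcgRIIb knockout IVIg mouse while the highest H2-Eb1 value (3007 CPM) is a WT IVIg mouse.

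Ccl3 (ENSMUSG00000000982, chromosome 11, 83538670 to 83540181) averaged 3.58 ± 1.67 CPM (4.68 RPKM). It was highest in a WT PBS mouse (8.39 CPM, beside 3.55 and 2.36 in the other two) and lowest in a Dectin-1 knockout IVIg mouse (0.930, beside 3.77 and 5.18). WT IVIg mice gave 3.02, 3.61 and 5.02 CPM, Dectin-1 knockout PBS mice 2.33, 4.70 and 4.32, and FcgRIIb knockouts 2.11 and 2.51 with PBS, besides 0 counts in the shallow library, and 3.55, 3.19 and 2.36 with IVIg. Per kilobase Ccl5, Cxcl16 and Ccl3 could not be ordered beyond their spread.

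Ccl2 and Ccl4 lay at the edge of detection. Ccl2 (ENSMUSG00000035385, chromosome 11, 81926397 to 81928279), the main ligand of Ccr2, averaged 1.19 ± 1.12 CPM (1.04 RPKM), and 4 libraries had under 10 counts, 2 of them none. Its counts were 45, 17 and 185 in WT PBS, 52, 0 and 38 in WT IVIg, 18, 43 and 5 in Dectin-1 knockout PBS, 25, 12 and 46 in Dectin-1 knockout IVIg, 25, 0 (shallow) and 73 in FcgRIIb knockout PBS and 43, 50 and 5 in FcgRIIb knockout IVIg. A single WT PBS mouse (4.46 CPM) carried the highest level, and the groups overlap. Ccl4 (ENSMUSG00000018930, chromosome 11, 83553410 to 83555509) averaged 0.543 ± 0.505 CPM (0.823 RPKM), with 8 libraries under 10 counts. It was counted 56, 22 and 20 times in WT PBS, 9, 52 and 14 in WT IVIg, 5, 5 and 7 in Dectin-1 knockout PBS and 0, 23 and 64 in Dectin-1 knockout IVIg. FcgRIIb knockouts gave 17, 0 (shallow) and 6 counts with PBS and 31, 10 and 4 with IVIg.

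Pf4 and Cxcl2 were too low to compare in any group. Pf4 (ENSMUSG00000029373, chromosome 5, 90920294 to 90921242), the platelet alpha-granule chemokine, gave 24 counts in all, in 4 libraries: 1 in a WT PBS mouse, 6 and 9 in 2 WT IVIg mice and 8 in a Dectin-1 knockout IVIg mouse. Other platelet genes were near 0 as well, with Gp9 at 0 in 16 libraries and Treml1 at 0 in 15, whereas Itgb3 (53.8 CPM) and Rgs18 (42.3 CPM), which monocytes also express, made up nearly all of the 50.8 to 119 CPM of the 14-gene platelet list. Cxcl2 (ENSMUSG00000058427, chromosome 5, 91051730 to 91053797), a ligand of Cxcr2 that draws neutrophils, was at 0 counts in all 18 libraries. With 3 counts as the limit that a count of 0 allows, its level was under 0.0613 to 0.177 CPM by raw library totals in the 17 deep libraries, covering counting error only. Of the 10 members, 8 passed the filter on low counts and were tested.

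No tested chemokine passed the test with IVIg in any genotype. With edgeR's quasi-likelihood test and Benjamini-Hochberg adjustment over 17040 genes, 0 of 8 members were called at an adjusted p under 0.05 in WT, where 0.00587% of all genes were called, and 0 of 8 in Dectin-1 and in FcgRIIb knockouts, where no gene was called (0.0%). At an unadjusted p under 0.05 the count was also 0 in each of the 3, against 2.51%, 3.27% and 3.19% of all genes. The PBS and IVIg values of each member overlapped in each genotype, where 6.33%, 8.8% and 7.04% of all genes did not. DESeq2 and limma voom called 0 of 8 too. The median log2 fold change of the 8 members was -0.18 in WT, 0.19 in Dectin-1 knockouts and 0.13 in FcgRIIb knockouts, where that of all tested genes was 0.01, 0.02 and 0.01. The intervals show how much could have been missed. In WT, IVIg over PBS was 0.94-fold for Ccl6 (95% interval 0.59 to 1.48), 0.84 for Ccl9 (0.52 to 1.34), 0.94 for Cxcl10 (0.63 to 1.39) and 1.07 for Cxcl16 (0.70 to 1.64). For Ccl5 it was 1.60 (0.80 to 3.19), for Ccl3 0.83 (0.41 to 1.66), for Ccl4 0.68 (0.23 to 2.02) and for Ccl2 0.33 (0.094 to 1.18). Doubling or halving thus lies outside the interval for Ccl6, Ccl9, Cxcl10 and Cxcl16, and inside it for the other 4 members in at least 1 direction.

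In Dectin-1 knockouts IVIg over PBS was 0.81-fold for Ccl6 (0.51 to 1.29), 1.04 for Ccl9 (0.65 to 1.66), 1.25 for Cxcl10 (0.83 to 1.88) and 1.41 for Cxcl16 (0.92 to 2.17). Ccl4 gave 4.44-fold (0.95 to 20.9, edgeR adjusted p = 1), from a median of 5 counts to one of 23. In FcgRIIb knockouts the fold interval was 0.63 to 1.59 for Ccl6, and the fold was 0.77 for Ccl9 (0.48 to 1.24), 0.93 for Cxcl10 (0.60 to 1.45), 1.2 for Cxcl16 (0.75 to 1.92) and 1.76 for Ccl5 (0.82 to 3.80). The change with IVIg was not shown to differ between a knockout and WT for any member. Neither interaction term called any of the 8 or any other gene (0.0%), and no member reached an unadjusted p under 0.05 (3.74% of genes for Dectin-1 and 2.86% for FcgRIIb). The largest such difference was that of Ccl4 in Dectin-1 knockouts, 2.70 ± 1.33 (SE) on the log2 scale (edgeR unadjusted p = 0.054, adjusted p = 0.999).

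**Figure D4:**
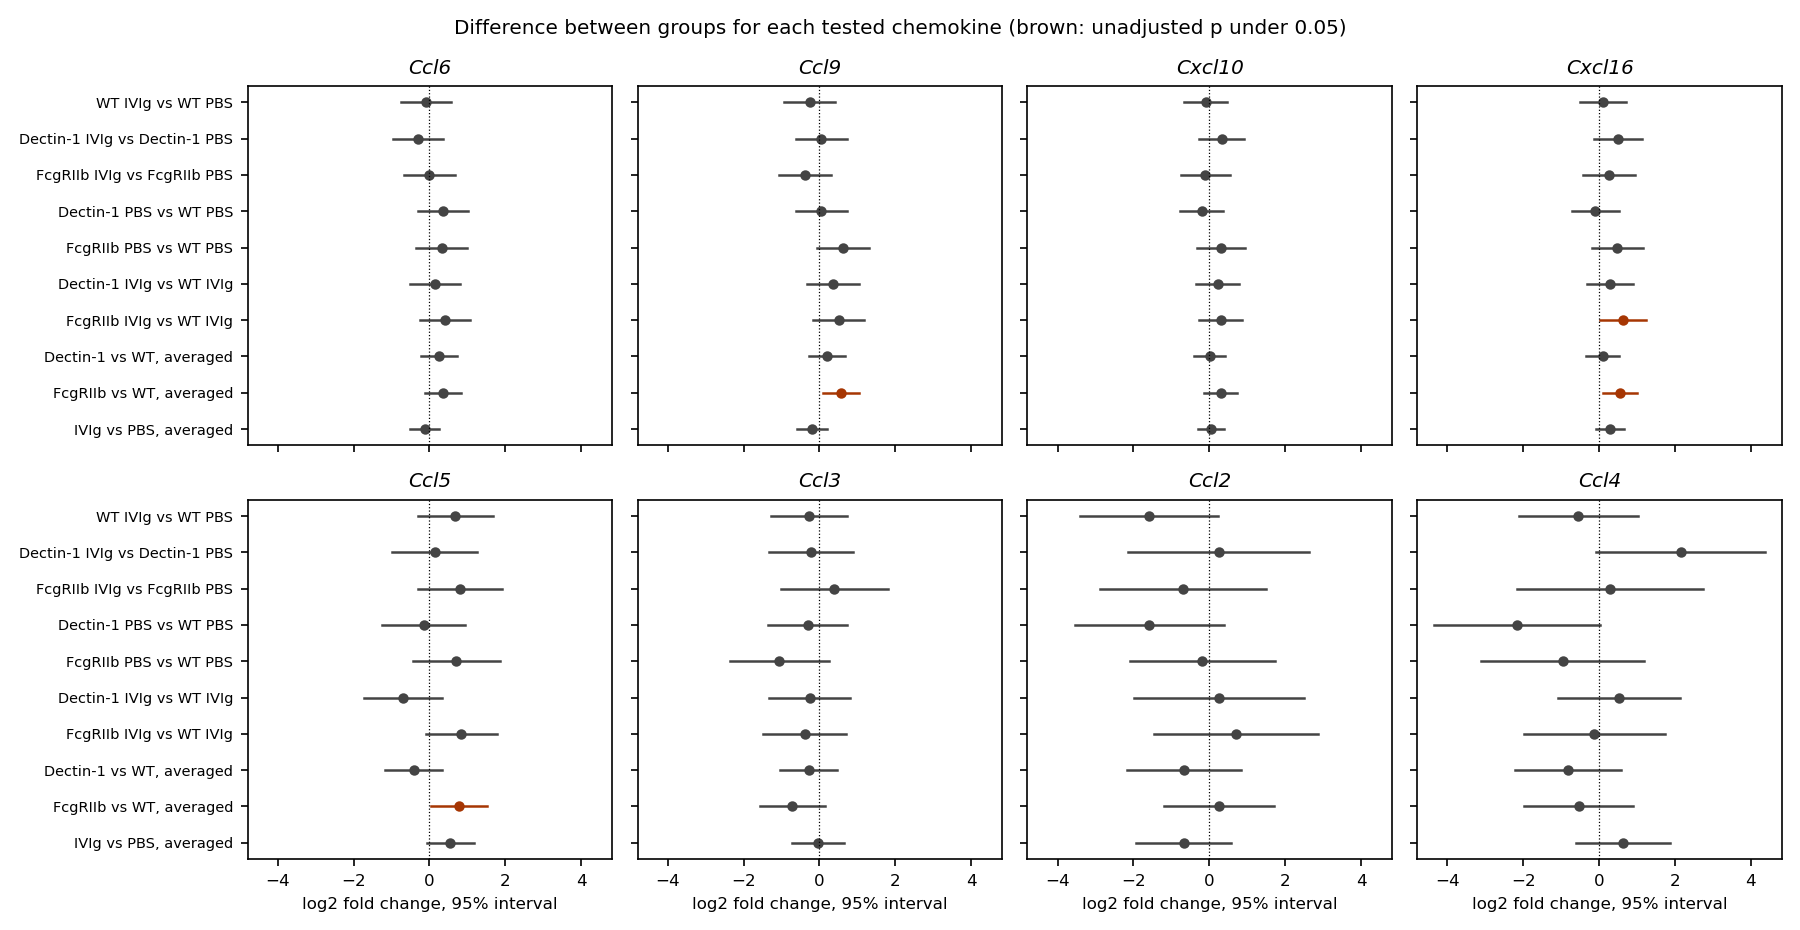
Log2 fold change (points) and 95% interval (lines) of each tested chemokine in the 7 pairwise comparisons and 3 averaged ones, knockout groups named by the deleted receptor, with unadjusted p under 0.05 in brown. Each interval includes 0 except the brown ones, which are Cxcl16 in 2 comparisons and Ccl9 and Ccl5 in 1 each, and intervals for Ccl2 and Ccl4 are several times wider than those for Ccl6.

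Loss of Dectin-1 called no member in PBS-treated mice (0 of 8, against 0.0411% of all genes) or in IVIg-treated mice (0 of 8, against 0.0528%), and none reached an unadjusted p under 0.05 in edgeR (4.03% and 3.46% of genes), DESeq2 or limma voom. Ccl4 had the largest difference, at -2.17 ± 1.06 (SE) on the log2 scale in PBS-treated mice (edgeR unadjusted p = 0.051, adjusted p = 0.909). It was the one member with groups that did not overlap in any of the 7 pairwise comparisons, and 16.3% of all genes did not overlap in this one. Knockout counts were 5, 5 and 7, under the minimum of 10 set for a comparable level, against 56, 22 and 20 in WT. Without WT PBS replicate 1 the value was -1.44. Ccl2 stood at -1.58 ± 0.94 in the same comparison, and at -0.19 in the setting that moved it most. Ccl6 was 1.27-fold (0.80 to 2.01) and Ccl9 1.03-fold (0.65 to 1.65). In IVIg-treated mice Ccl5 stood at 0.62-fold (0.30 to 1.27) and the others between 0.84-fold and 1.44-fold, and all groups overlapped (6.22% of genes did not). The 11 neutrophil markers, none of them at 0 in all libraries, summed to 244 to 1525 CPM in Dectin-1 knockout IVIg against 159 to 294 in the other groups, and 1 of them, Retnlg, was called higher there than in WT IVIg (edgeR adjusted p = 0.0435). Ccl3 and Ccl4, which neutrophils can express, were not called and Cxcl2 stayed at 0, and the part of neutrophils in the values of this group was not tested.

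Loss of FcgRIIb also called no member. In PBS-treated mice 0 of 8 members were called, as of all genes (0.0%), and 0 reached an unadjusted p under 0.05 (9.64% of genes), and groups overlapped for each member (11.6% of genes did not). DESeq2 had 1 member at that unadjusted level, Ccl9 (unadjusted p = 0.0463, DESeq2 adjusted p = 0.310). Ccl3 stood lower there, at 0.48-fold (0.19 to 1.19, edgeR unadjusted p = 0.108, adjusted p = 0.555), with 0 counts in the shallow library. In IVIg-treated mice 0 of 8 were called (0.0117% of genes) and all groups overlapped (10.3% of genes did not). Cxcl16 alone had an unadjusted p under 0.05 there (5.45% of genes), at 1.55-fold (1.02 to 2.36, edgeR unadjusted p = 0.0417, adjusted p = 0.903), and Zmynd15 stood at 0.80 ± 0.32 (SE) on the log2 scale beside it (edgeR unadjusted p = 0.019, adjusted p = 0.903). Ccl5 was 1.63-fold with PBS (0.74 to 3.62) and 1.79-fold with IVIg (0.93 to 3.45), and Ccl9 1.55-fold (0.96 to 2.49) and 1.43-fold (0.89 to 2.28). Ccl2 stood at 1.64-fold with IVIg, with an interval of 0.37 to 7.31.

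Averaging both treatments, a contrast added after the data were seen, gave FcgRIIb knockout over WT at 1.47-fold for Cxcl16 (1.07 to 2.01), 1.48-fold for Ccl9 (1.06 to 2.08) and 1.71-fold for Ccl5 (1.02 to 2.86). Their edgeR unadjusted p were 0.0195, 0.0231 and 0.042, and their adjusted p 0.400 to 0.402. Thus 3 of 8 members and 12.3% of all genes reached an unadjusted p under 0.05, while 0 of 8 members and 0.088% of genes were called. DESeq2 counted 3 at the unadjusted level and limma voom 1. The estimate was above 0 for 6 of the 8 members, with a median of 0.33 on the log2 scale against -0.02 for all tested genes. T and NK cell markers stood higher in the same contrast without a call: 10 of 11 T cell markers were above 0 with a median of 1.25 on the log2 scale, and 9 of 10 NK cell markers with a median of 1.39. Monocyte markers, whose sum went with Ccl9 (r = 0.90), summed to 30838 to 42782 CPM with PBS and 23588 to 40856 with IVIg in FcgRIIb knockouts. In WT they summed to 23829 to 32422 and 21610 to 33096. Red pulp macrophage sums were 194 to 239 and 203 to 220 CPM, against 192 to 268 and 190 to 223 in WT. Cxcl16 went with the T cell sum (r = 0.70), the NK sum (r = 0.61) and the dendritic cell sum (r = 0.62) over the 17 deep libraries. Without Cd4 the r with the T cell sum was 0.53, and -0.14 among deviations from the group means. Without Klrk1 the r with the NK sum was 0.68, and 0.29 among such deviations. The part of T, NK and dendritic cells in these values was not tested. Ccl6 stood at 1.29-fold (0.93 to 1.78), Cxcl10 at 1.23-fold (0.92 to 1.66) and Ccl3 at 0.61-fold (0.34 to 1.10). Fold changes in this contrast also ran with gene length (Spearman -0.61 over 5281 abundant genes). With that trend removed Ccl5 moved from 0.77 to 0.42 and Ccl6 from 0.37 to 0.15 on the log2 scale. With limma voom, which weights libraries by quality, Ccl9 moved from 0.57 to 0.17. Most other comparisons held a length trend too, and the folds and intervals given are not corrected for it. Spearman was -0.48 for Dectin-1 knockout against WT averaged over treatments and 0.03 for IVIg averaged over genotypes. Against WT it was -0.52 (Dectin-1) and -0.60 (FcgRIIb) with PBS, and -0.04 and -0.51 with IVIg. For IVIg it was -0.42 in WT, 0.27 in Dectin-1 knockouts and 0.24 in FcgRIIb knockouts. The same WT libraries serve as reference for the Dectin-1 knockouts, where the averaged fold was 1.06 for Cxcl16 (0.79 to 1.44), 1.15 for Ccl9 (0.83 to 1.60) and 0.75 for Ccl5 (0.44 to 1.26), with 0 of 8 called against 0.0998% of genes and none at the unadjusted level (3.5%). Averaged over the 3 genotypes, IVIg over PBS was 0.91-fold for Ccl6 (0.70 to 1.19), 0.87 for Ccl9 (0.67 to 1.15), 1.03 for Cxcl10 (0.81 to 1.31), 1.22 for Cxcl16 (0.95 to 1.57) and 1.46 for Ccl5 (0.95 to 2.25), again with 0 of 8 called (0.0% of genes) and none at the unadjusted level (2.31%).

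The receptors for these ligands were present at very different levels. Ccr2, the receptor of Ccl2, averaged 1928 CPM and Cx3cr1, the fractalkine receptor of non-classical monocytes, 1048 CPM. Cxcr4 stood at 134 CPM, Ccr1 at 31.7 (7.11 to 125), Cxcr3 at 2.17, Cxcr2 at 1.97 and Cxcr6 at 0.291. Of 23 receptor genes 18 were tested and 0 were called in each of the 12 comparisons, where 0.0% to 0.0998% of all genes were called. Their median log2 fold changes ran from -0.10 to 0.63 where those of all genes ran from -0.05 to 0.02. Ccr1, the receptor of Ccl6 and Ccl9, gave the smallest unadjusted p among them with IVIg in WT. It stood at 32.7, 18.6 and 125 CPM with PBS and 12.7, 7.11 and 15.3 with IVIg, a log2 difference of -2.33 ± 0.57 (SE) with an edgeR unadjusted p of 0.000615 and an adjusted p of 1. A single mouse, WT PBS replicate 3, carries much of that value, which was -1.13 without it (edgeR unadjusted p = 0.0242, adjusted p = 1).

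None of the genes that accompany chemokine induction was called either. Of 26 other chemokines 8 were at 0 in all 18 libraries and 7 were tested, with 0 called. Cxcl9, which shares Cxcr3 with Cxcl10, was the one with the highest mean at 11.1 CPM. Among the 17 tested interferon partners of Cxcl10, 0 were called, and they were plainly expressed, with Irf7 at 285 CPM and Rsad2 at 84.9. The 22 tested NF-kB and inflammatory genes had 0 calls in each comparison: Nfkbia, the feedback inhibitor of NF-kB, stood at 197 CPM, Il1b at 45.0 and Tnf at 3.48. The 9 proteases and regulators of chemokine release had 0 calls as well, with the Cxcl16 sheddase Adam10 at 243 CPM, Adam17 at 234 and Dpp4, which trims Cxcl10 and Ccl5, at 76.1. Dpp4 came nearest to a call, with -1.24 ± 0.24 (SE) on the log2 scale in Dectin-1 knockouts against WT averaged over treatments (edgeR adjusted p = 0.0575). The 18 immediate early genes, which respond to handling of cells, also had 0 calls. Median log2 fold changes over the 12 comparisons ran from -0.46 to 0.93 for the other chemokines, from -0.26 to 0.29 for the interferon partners, from -0.27 to 0.24 for the NF-kB genes, from -0.19 to 0.38 for the proteases and from -0.42 to 0.29 for the immediate early genes.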

How the data were processed

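The kit for the sequencing libraries kept the strand of the messenger RNA, per the labels, and alignment was done with STAR on GRCm39, per the submitters' processing notes. The authors deposited raw counts of read pairs for each gene together with its exon length. Per the file headers, featureCounts 2.0.2 made them from Ensembl release 104 with no strand option, a pair counting for every gene it overlaps. A further 18 count columns, whose names fit none of the samples, were left out. Genes lacking a symbol (1492) stayed in the totals, at 0.125% to 0.450% of a library.

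The counts were filtered with filterByExpr (17040 genes kept), TMM-scaled and fitted in edgeR 4.0.16 under R 4.3.3 as a single quasi-likelihood model of all 18 libraries, with 12 residual degrees of freedom. Calls needed an adjusted p (Benjamini-Hochberg, over the genes of a comparison) under 0.05. The script was tested on simulated data. CPM use TMM-scaled library sizes, except where raw library totals are named. Log2 CPM use a prior count of 2, and RPKM divide CPM by exon length in kilobases. Intervals are 95% intervals of the model. Settings also run were DESeq2 1.42.0, limma voom (limma 3.58.1), RLE size factors, other filters and fits, and removal of gene groups, of a gene length trend or of libraries. Genes beside the members were named for a call or the smallest unadjusted p in their list, for the highest Pearson r with a member, or, after their values were seen, as receptors and abundant genes of a list. Motifs were searched in Python 3.11.15, and figures drawn with matplotlib 3.10.9.

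The members, the lists and the pairs of genes whose r is given were chosen with earlier results of these data known. The series' design text calls the mice independent, though the titles of 3 pairs of libraries share a code that no label explains. Of these pairs, 1 is Dectin-1 knockout PBS replicates 2 and 3, and 1 is FcgRIIb knockout PBS replicates 1 and 2. The last is WT IVIg replicate 3 with FcgRIIb knockout PBS replicate 3. Replicate numbers follow accession order.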

Additional observations from a re-analysis of the deposited data

How the results depend on the processing

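The count of called members was 0 in each of the 12 comparisons, and it was 0 again in each of the 348 recomputations under the 29 other settings, the 18 that leave out 1 library among them (lowest 0, highest 0). The setting without the shallow library repeats the fit without FcgRIIb knockout PBS replicate 2, so the settings are not all distinct. Few genes were called at all, 0.0% to 0.0998% in the main fit, so the run of zeros says little about the members. The smallest adjusted p of any member was 0.0971, for Ccl9 in FcgRIIb knockout against WT averaged over treatments without FcgRIIb knockout PBS replicate 1. In that contrast the log2 fold change ranged over the settings from 0.42 to 0.72 for Cxcl16, from 0.17 to 0.72 for Ccl9 and from 0.42 to 1.14 for Ccl5. Without the shallow library Ccl9 stood at 0.42 there (unadjusted p = 0.0777), and without the most alike WT pair Ccl5 stood at 0.50 (unadjusted p = 0.185). Values of Ccl2 and Ccl4 moved widely, and some changed sign: Ccl2 ranged from -1.27 to 1.2 for FcgRIIb knockout against WT with PBS, and Ccl4 from -1.49 to 0.92 for the same genotypes with IVIg, where 24 of 29 settings kept the sign. Ccl2 ranged from -2.29 to -0.19 for IVIg in WT and from -2.38 to -0.19 for Dectin-1 knockout against WT with PBS, and the difference in IVIg effect between FcgRIIb knockouts and WT from -0.50 to 1.97 for Ccl2. No paired analysis was possible because replicate numbers follow accession order and pair no mice. Depth limits Ccl2, Ccl4, Pf4 and Cxcl2, and in the shallow library also Ccl3 and Ccl5.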
